A study of Mus musculus with 20 samples.

Results

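Fibroblasts and myofibroblasts were followed through 10 of their marker genes in bulk RNA-seq of mouse colonic organoid (colonoid) cultures. The genes were Acta2, Tagln, Myh11 and Des, which belong to the contractile apparatus, and Pdgfra, Pdgfrb, Thy1, Vim, Cd34 and Pdpn, which mark fibroblasts more generally. They were taken from the table by gene symbol, all 10 were found among 35240 symbols, and the values of their 42 transcripts were summed per gene. Of the 10, 9 had a mean of at least 1 over the libraries and were tested together with all other genes above that level, 13539 in all. Des was below it and is given by its values only. The question was whether contractile genes and general fibroblast genes rose together late in cultures from mice with a deletion of Tnfrsf1b. That gene encodes TNFR2, a receptor of tumor necrosis factor.

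Colonoids were grown from crypts of WT (C57BL/6) mice and of mice with a whole-body deletion of Tnfr2 (Tnfr2-/-), which the study's methods describe as 8 weeks old. Crypts were embedded in Matrigel under IntestiCult medium, and both genotypes were passaged 5 times, filtered through a 70-µm mesh and seeded, without any treatment. RNA was taken on days 1, 2, 3, 5 and 7 after the passage (days post passage, DPP). There were 20 libraries, 2 for each genotype and day, and the numbers in the labels are read as 2 mice per genotype, each giving 1 library on each day, so that the libraries of a mouse were not separate animals. Days 1 to 3 are called early and days 5 and 7 late. The labels name no sort of the cells, and the study annotated Pdgfra+ fibroblasts beside the epithelium in single-cell data of these cultures.

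Fibroblasts of the colon lie beneath the epithelium, make collagen and other matrix, and send growth signals to the crypt. When activated they can become myofibroblasts, which build actin filaments like those of smooth muscle, and many contractile genes are then switched on together by serum response factor (SRF) and its cofactors through a promoter element called the CArG box. PDGF receptors on these cells bind platelet-derived growth factors made by epithelium and other cells, and drive their growth and migration.

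Since the CArG box is the element that contractile genes are known to share, the members' promoters were searched for it. RefSeq promoter sequence of build GRCm38.p6 was at hand for 6 members, of which Acta2 and Des are contractile. Tagln, Myh11, Pdgfrb and Thy1 had no entry. Of the 250 bases before the Acta2 start, only the stretches of 30 bases around 2 CArG-like matches are shown, since most of the window overlaps an annotated exon. The start is that of RefSeq, which lies inside the gene as bounded by the coordinates given later, so both matches are within the annotated gene, and so is the whole Vim window. The capitals mark the CArG-like letters, each with 1 G or C among the inner 6, and both stretches lie on the minus strand of chromosome 19.
Acta2, chr19:34255438-34255467, match from 84 to 75 bases before the start: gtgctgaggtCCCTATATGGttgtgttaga
Acta2, chr19:34255388-34255417, match from 34 to 25 bases before the start: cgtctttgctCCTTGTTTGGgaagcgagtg
The Des window, on the plus strand, held neither form of the CArG box, nor CATTCC, nor TATAAA, and is shown whole for comparison.
Des, chr1:75360042-75360291: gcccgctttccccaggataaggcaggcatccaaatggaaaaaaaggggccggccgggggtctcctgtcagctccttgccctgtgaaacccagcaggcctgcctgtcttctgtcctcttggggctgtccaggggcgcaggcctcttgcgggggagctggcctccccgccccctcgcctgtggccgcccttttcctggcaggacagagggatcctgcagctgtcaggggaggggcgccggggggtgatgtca

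Both strands were searched. The strict CArG box (CC, then 6 of A or T, then GG) was in 1.47% of 32851 promoter windows of this length and in none of the 6 members. The loose form, in which 1 of the inner 6 may be G or C, was in 8.59% of windows and, among the 6, in Acta2 alone. The TEAD motif CATTCC was found in 12.6% of windows and in Acta2, and the TATA box TATAAA in 12.4% and in Vim. A match describes these letters and is not evidence of binding, and no match speaks only of this window.

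The values are TPM, a measure of transcript abundance that allows for transcript length, adjusted by the size factor of each library, so that levels can be compared between genes. They summed to between 899764 and 1110230 per library, and 13007 to 13469 genes reached a value of 1. Read depth was not in the table. The targeted gene Tnfrsf1b ran from 11.1 to 21.9 in the 10 WT libraries (median 14.3) and from 2.71 to 11.5 in the 10 Tnfr2-/- libraries (median 4.85), a log2 difference of -1.35 (adjusted p = 9.7e-05 over all days, limma). The genotypes met only through late Tnfr2-/- libraries, and the gene was called lower at late days too (-0.79, adjusted p = 0.0323).

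In WT cultures the members were ordered by median as Vim (408), Pdpn (212), Pdgfra (55.5), Pdgfrb (48.2), Cd34 (28.0), Tagln (20.1), Acta2 (18.9), Thy1 (17.7), Myh11 (1.63) and Des (0). In Tnfr2-/- cultures the order was Vim (749), Pdpn (153), Pdgfrb (51.6), Thy1 (49.9), Cd34 (49.1), Pdgfra (49.0), Tagln (21.9), Acta2 (20.8), Myh11 (0.845) and Des (0.320). Vim therefore led in both and the smooth muscle genes Myh11 and Des came last. Over the 10 libraries of a genotype the ranges of neighbours in either order overlapped, except that the range of Myh11 lay wholly below that of the gene ranked just above it. Thy1 ranked just above Myh11 in WT and just below Pdgfrb in Tnfr2-/- cultures. In bulk RNA, fewer cells of a type and less RNA per cell cannot be told apart, and this holds for every level given here.

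Acta2 encodes alpha smooth muscle actin, the usual marker of myofibroblasts, and lies on chromosome 19 from 34241090 to 34255590 on the minus strand (GRCm38). In Tnfr2-/- mouse 1 it stood at 21.4, 20.2, 12.2, 10.4 and 82.3 on days 1, 2, 3, 5 and 7, and in Tnfr2-/- mouse 2 at 25.7, 21.9, 18.4, 19.9 and 92.8. In WT mouse 1 the same days gave 20.8, 8.50, 5.24, 9.69 and 15.8, and in WT mouse 2 they gave 25.7, 27.4, 17.0, 49.7 and 58.6. The Tnfr2-/- cultures were thus flat or lower until 5 DPP and highest at 7 DPP in both mice. The WT mice parted at 5 DPP, where mouse 2 was already high and mouse 1 was not, and at 7 DPP both Tnfr2-/- libraries lay above both WT libraries.

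Tagln encodes transgelin, an actin-binding protein of smooth muscle, on chromosome 9 from 45929619 to 45936058 (minus strand). Tnfr2-/- mouse 1 gave 20.8, 20.8, 15.8, 21.3 and 131.5 over the 5 days, and mouse 2 gave 22.5, 16.8, 25.7, 46.2 and 155.8. In WT mouse 1 it was at 19.7, 10.5, 9.80, 18.8 and 31.5, and WT mouse 2 gave 20.5, 16.0, 31.6, 76.5 and 70.4. The course resembled that of Acta2, with the highest values at 7 DPP in both Tnfr2-/- mice, and with WT mouse 2 again the earlier of the WT pair. Late libraries of the genotypes overlapped for both genes, since the Tnfr2-/- libraries of 5 DPP were within the WT range.

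Myh11, the smooth muscle myosin heavy chain (chromosome 16, 14194535 to 14291372, minus strand), stayed low. It ran from 0.0918 to 2.82 in WT and from 0.382 to 2.79 in Tnfr2-/- libraries, and its 7 DPP values were 2.28 and 2.82 in WT and 1.56 and 2.79 in Tnfr2-/- cultures. At 1 DPP both WT libraries (1.30 and 1.97) were above both Tnfr2-/- libraries (0.420 and 0.903), and on the other days the genotypes overlapped. Des, which encodes the muscle intermediate filament desmin (chromosome 1, 75360329 to 75368579, plus strand), stood at 0 in 8 WT libraries, reaching 0.219 in the others, while among Tnfr2-/- libraries it was listed at 0 once and reached 0.947 in mouse 1 at 3 DPP. Its Tnfr2-/- values at 7 DPP were 0.304 and 0.156, so Des was not among the genes that were highest late. Of the 4 contractile members, the pair of actin-associated genes had high values at 7 DPP in Tnfr2-/- cultures and the markers of mature smooth muscle remained near the bottom of the scale. This contrast is one of level. Myh11 too was highest at 7 DPP in every mouse of both genotypes. In Tnfr2-/- mice 1 and 2 it was then 3.70 and 3.09 times its 1 DPP value, and Acta2 was 3.84 and 3.62 times its own.

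**Figure D1:**
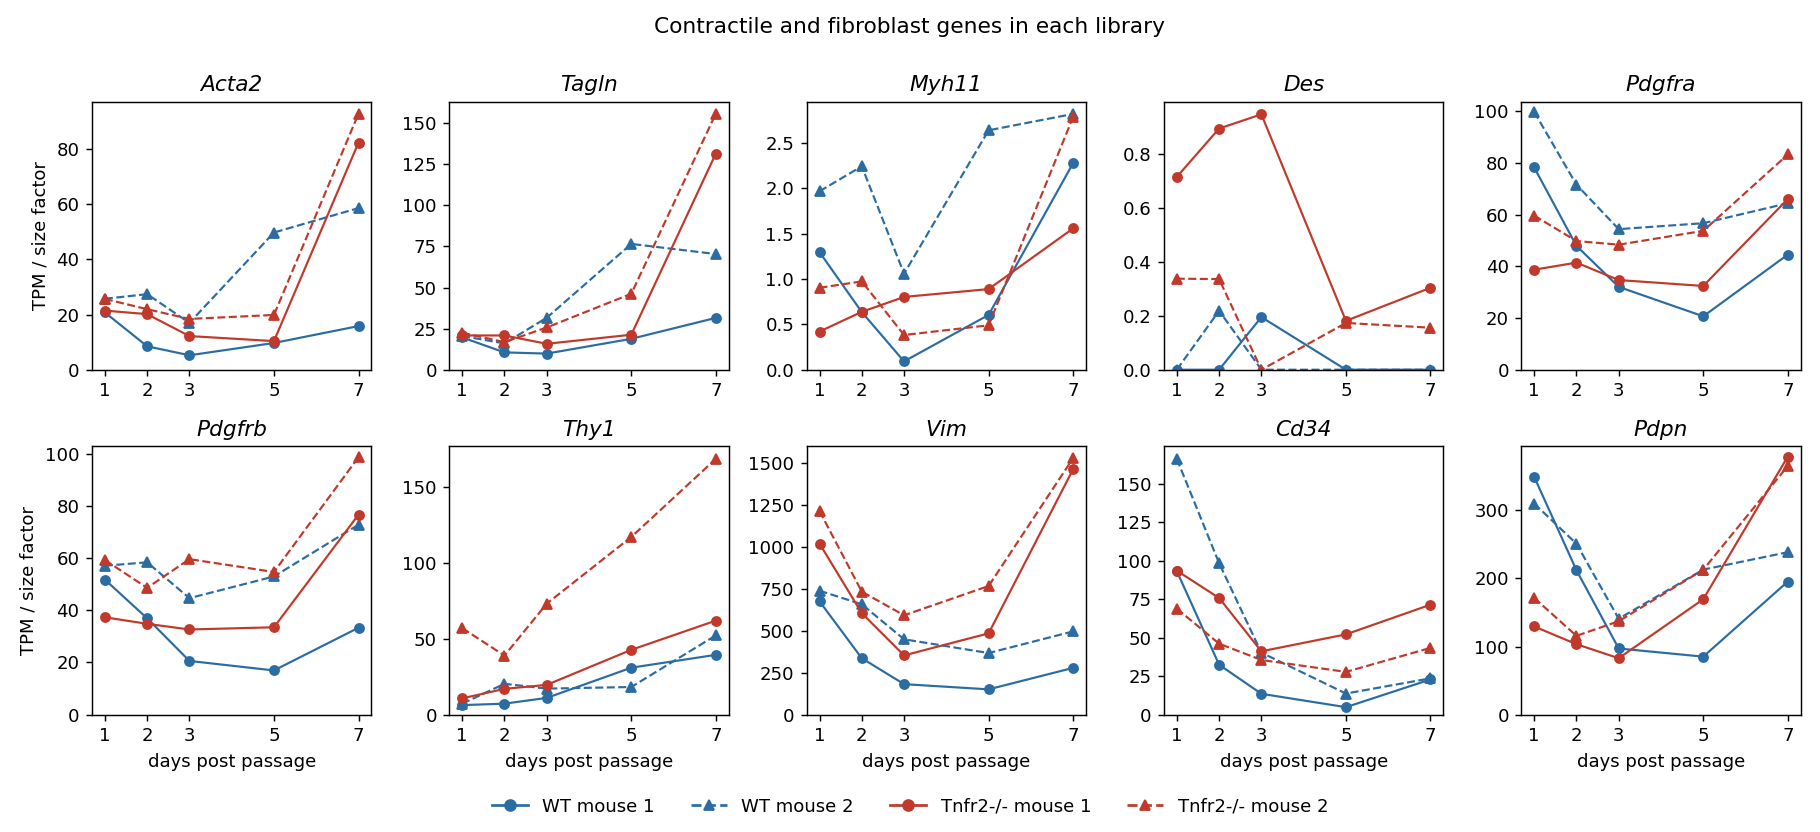
Value of each of the 10 genes (TPM divided by a size factor, linear axis from 0, a different range in each panel) against days post passage, with 1 line per mouse, WT in blue and Tnfr2-/- in red, and no error bars because each point is 1 library. Acta2 and Tagln were at most 46.2 in Tnfr2-/- cultures until 5 DPP and 82.3 to 155.8 at 7 DPP, while Cd34 was highest at 1 DPP in all 4 mice.

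Pdgfra, the receptor that marks most colonic fibroblasts (chromosome 5, 75152292 to 75198215, plus strand), started higher in WT. WT mouse 1 gave 78.2, 47.9, 32.0, 20.6 and 44.5 and WT mouse 2 gave 99.7, 71.5, 54.3, 56.6 and 64.4. Tnfr2-/- mouse 1 gave 38.7, 41.4, 34.7, 32.4 and 66.0 and mouse 2 gave 59.6, 49.7, 48.3, 53.7 and 83.2. At 1 DPP both WT libraries were above both Tnfr2-/- libraries, at 7 DPP the reverse held, and between these days the genotypes overlapped.

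Pdgfrb, the second PDGF receptor, found on fibroblasts and pericytes, lies on chromosome 18 from 61045150 to 61085061. Its values were 51.7, 36.9, 20.6, 16.9 and 33.3 in WT mouse 1 and 57.0, 58.3, 44.6, 52.9 and 72.8 in WT mouse 2. In Tnfr2-/- mouse 1 it gave 37.3, 34.8, 32.6, 33.5 and 76.6, and mouse 2 gave 59.2, 48.6, 59.6, 54.6 and 98.6. As with Pdgfra, both Tnfr2-/- libraries were the highest at 7 DPP, and WT mouse 1 was the lowest from 3 DPP on.

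Vim encodes vimentin, the intermediate filament of mesenchymal cells (chromosome 2, 13573927 to 13582826, plus strand). WT mouse 1 gave 675, 336, 182, 151 and 278, and WT mouse 2 gave 738, 657, 449, 367 and 496. The Tnfr2-/- cultures gave 1019, 604, 353, 484 and 1462 in mouse 1 and 1213, 732, 591, 766 and 1528 in mouse 2. Both genotypes were high at 1 DPP and lower at 3 DPP, after which the Tnfr2-/- cultures returned to their highest values at 7 DPP and the WT cultures did not. Both Tnfr2-/- libraries lay above both WT libraries at 1, 5 and 7 DPP. Of the summed Vim value, 43.9% came from a transcript annotated as a retained intron (mean 386 in Tnfr2-/- and 188 in WT libraries). Protein-coding transcripts followed at 30.0% (277 and 115) and 25.8% (211 and 127), the last being the principal one.

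Thy1, a lipid-anchored surface protein of fibroblasts and T cells (chromosome 9, 44043384 to 44048579, plus strand), followed another course. WT mouse 1 gave 6.27, 7.25, 11.0, 31.0 and 39.4, and WT mouse 2 gave 7.25, 20.3, 17.2, 18.2 and 52.3. Tnfr2-/- mouse 1 gave 10.7, 17.0, 19.6, 42.8 and 62.0, and mouse 2 gave 57.1, 38.9, 73.2, 117.2 and 168.8. It was highest at 7 DPP in all 4 mice, and Tnfr2-/- mouse 2 exceeded the other 3 mice on every day.

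Cd34, a sialomucin found on many fibroblasts, on endothelium and on blood progenitors (chromosome 1, 194938819 to 194961279, plus strand), had the opposite course. WT mouse 1 gave 93.2, 32.4, 13.5, 4.85 and 22.9, and WT mouse 2 gave 166, 98.4, 40.3, 13.7 and 23.6. Tnfr2-/- mouse 1 gave 93.5, 75.8, 41.1, 52.1 and 71.4, and mouse 2 gave 68.8, 46.1, 35.5, 27.8 and 43.4. All 4 late Tnfr2-/- libraries were above all 4 late WT libraries, and the early libraries overlapped.

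Pdpn encodes podoplanin, a mucin-type glycoprotein of fibroblasts, lymphatic vessels and some epithelia (chromosome 4, 143267431 to 143299564, minus strand). Its symbol had 2 gene identifiers with the same values, and the sum of both is given. WT mouse 1 gave 349, 212, 97.1, 85.1 and 195, and WT mouse 2 gave 310, 251, 141, 213 and 238. Among Tnfr2-/- cultures mouse 1 gave 129, 103, 82.8, 169 and 379, and mouse 2 gave 171, 116, 137, 213 and 365. The genotypes changed places between 1 DPP, where both WT libraries were above, and 7 DPP, where both Tnfr2-/- libraries were above.

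The step from 5 to 7 DPP was looked at because of these courses, that is, after the values had been seen. In Tnfr2-/- cultures all 9 tested members were higher at 7 than at 5 DPP in both mice, whereas 31.1% of the 13539 tested genes were. In WT cultures 8 of the 9 were higher in both mice, with Tagln the exception, against 25.7% of tested genes. Of 8 epithelial markers, 2 were above 0 in the fitted Tnfr2-/- step (median -0.38) and 3 in the WT step (median -0.08), none called and 3 with an unadjusted p under 0.05 in each, and for the Tnfr2-/- step less the WT step 1 was above 0 (median -0.39, none called, 2 with an unadjusted p under 0.05). Their part in the members' step was not tested. Acta2 and Tagln had the larger ratios in Tnfr2-/- cultures. Acta2 at 7 DPP was 7.94 and 4.67 times its 5 DPP value in Tnfr2-/- mice 1 and 2 and 1.63 and 1.18 times in WT mice 1 and 2. For Tagln the same ratios were 6.18 and 3.37 in Tnfr2-/- mice and 1.68 and 0.920 in WT mice. Myh11, near the bottom of the scale, gave 1.75 and 5.69 in Tnfr2-/- and 3.77 and 1.07 in WT mice, so the mice of each genotype lay far apart.

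The general fibroblast genes had smaller ratios than Acta2 and Tagln in each Tnfr2-/- mouse. Pdgfra at 7 DPP was 2.04 and 1.55 times its 5 DPP value in Tnfr2-/- mice and 2.16 and 1.14 times in WT mice. Vim was at 3.02 and 1.99 times in Tnfr2-/- mice and at 1.85 and 1.35 times in WT mice. Over the 6 fibroblast members the ratios lay between 1.37 and 3.02 in Tnfr2-/- mice and between 1.12 and 4.72 in WT mice, the last being Cd34 in WT mouse 1, which came from the lowest value of the gene.

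Fitted over all genes, the Tnfr2-/- step was 2.52 on the log2 scale for Acta2 (SE 0.74, adjusted p = 0.412) and 2.15 for Tagln (SE 0.61, adjusted p = 0.392). None of the 9 members passed the adjusted threshold of 0.05, and neither did any of the 13539 genes (0% called), although 1151 genes and, of the members, Acta2, Tagln, Vim and Pdpn had an unadjusted p under 0.05. In the fit with a term for the mouse, 1 member, Acta2, was called (adjusted p = 0.0444) beside 0.0517% of genes, and Tagln and Vim had an adjusted p of 0.0744. When the libraries of a mouse were instead treated as correlated, Acta2 was not called (adjusted p = 0.218). In WT cultures the step was 0.44 for Acta2 and 0.30 for Tagln, no member was called (1 with an unadjusted p under 0.05), and 0.0148% of genes were. The Tnfr2-/- step less the WT step was 2.08 for Acta2 (SE 1.05, adjusted p = 0.988) and 1.85 for Tagln (SE 0.87, adjusted p = 0.988), and no member or gene was called (0% of genes, with an unadjusted p under 0.05 in 678 genes and no member). The contractile step was therefore not shown to differ between genotypes, with 95% intervals of -0.18 to 4.34 for Acta2 and -0.02 to 3.72 for Tagln. Leaving out a library or mouse moved this difference between 0.96 and 3.20 for Acta2 and between 0.87 and 2.84 for Tagln. The WT step then ran from -0.68 to 1.57 for Acta2 and from -0.69 to 1.28 for Tagln.

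**Figure D2:**
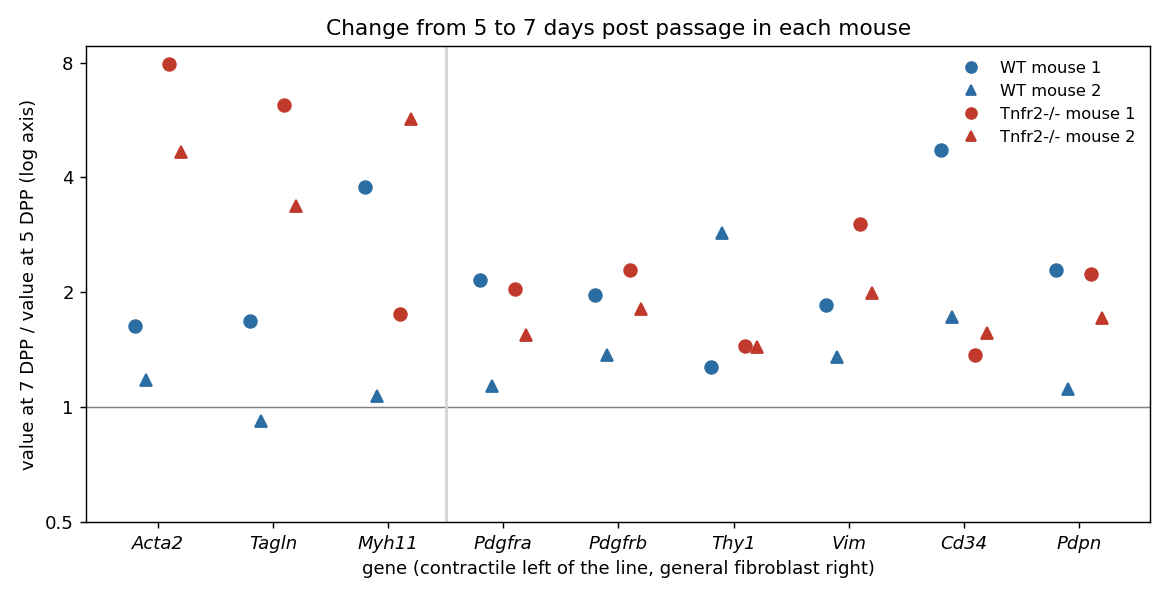
Ratio of the value at 7 DPP to that at 5 DPP (log axis) for the 9 tested genes, with 1 point per mouse, contractile genes on the left and general fibroblast genes on the right. Acta2 and Tagln lie between 3.37 and 7.94 in the Tnfr2-/- mice and between 0.920 and 1.68 in the WT mice, while the fibroblast genes of the genotypes overlap except Vim and Cd34.

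The comparison of late with early days asks for a change within a genotype. In Tnfr2-/- cultures 2 of 9 members were called, in a comparison that called 20.3% of genes. Tagln rose by 1.69 on the log2 scale (SE 0.40, adjusted p = 0.00914) and Pdpn by 1.14 (SE 0.22, adjusted p = 0.00337). Of the others, Thy1 stood at 1.52 (adjusted p = 0.0547), Acta2 at 0.85 (SE 0.48, adjusted p = 0.245), Pdgfrb at 0.46, Vim at 0.45, Myh11 at 0.45, Pdgfra at 0.31 and Cd34 at -0.29. With the mouse as a term, 4 members were called beside 24.7% of genes, Acta2 (adjusted p = 0.0182) and Thy1 (adjusted p = 0.0012) having joined Tagln and Pdpn. Treating a mouse's libraries as correlated did not call Acta2 there (adjusted p = 0.156). With 7 DPP alone as the late day, a choice made after seeing the values, Acta2 rose by 2.11 (adjusted p = 0.0310), and with 5 DPP alone it stood at -0.41 and no member was called. The Tagln call was lost without Tnfr2-/- mouse 2 at 5 DPP (adjusted p = 0.0505) and without either Tnfr2-/- mouse (adjusted p = 0.221 without mouse 1 and 0.301 without mouse 2), and that of Pdpn without either mouse (adjusted p = 0.234 and 0.128).

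In WT cultures 3 of 9 members were called, beside 20.1% of genes. Tagln rose by 1.30 (SE 0.40, adjusted p = 0.0350), Thy1 rose by 1.56 (SE 0.52, adjusted p = 0.0490) and Cd34 fell by 1.91 (SE 0.38, adjusted p = 0.00432). The Cd34 call held in all 24 fits that left out a library or a mouse but not without 1 DPP (-1.33, adjusted p = 0.0526). That of Tagln was lost without any of 6 single WT libraries, with the smallest value without mouse 2 at 5 DPP (0.80, adjusted p = 0.149), without WT mouse 2 (adjusted p = 0.0942) and without either Tnfr2-/- mouse (adjusted p = 0.122 for each), so it held in 15 of the 24 fits. That of Thy1 held in 8 of them. With the mouse as a term 6 members were called beside 24.9% of genes, Acta2 (0.75, adjusted p = 0.0323), Pdgfra (-0.48, adjusted p = 0.0284) and Vim (-0.62, adjusted p = 0.0141) being added. In that fit Acta2, Tagln and Thy1 rose and Pdgfra, Vim and Cd34 fell in WT cultures, but the 3 added calls were absent where a mouse's libraries were treated as correlated (adjusted p = 0.204, 0.162 and 0.109).

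The genotypes were set against each other by the late change in Tnfr2-/- cultures less that in WT cultures. In limma no member was called, beside 0.148% of genes, with 3 members at an unadjusted p under 0.05. These were Cd34 (1.61, SE 0.54, adjusted p = 0.266), Pdpn (1.42, SE 0.32, adjusted p = 0.112) and Vim (1.08, SE 0.44, adjusted p = 0.366). With the mouse as a term, which called 1.2% of genes, all 3 were called (adjusted p = 0.0253 for Cd34 and Pdpn and 0.0430 for Vim), and Pdgfra followed at 0.79 (adjusted p = 0.0775). None of them passed where a mouse's libraries were treated as correlated (adjusted p = 0.148 for Cd34, 0.0613 for Pdpn and 0.221 for Vim). On the means of 2 mice against 2, the unit in which the genotypes were sampled, the adjusted p was 0.324, 0.320 and 0.293 and no gene was called, though the 3 kept an unadjusted p under 0.05. For the contractile genes the difference was 0.10 for Acta2 (95% interval -1.36 to 1.56), 0.40 for Tagln (-0.81 to 1.61) and -0.04 for Myh11 (-1.02 to 0.94), with an adjusted p of at least 0.651 in the fit with the mouse as a term too. The values of Acta2 and Tagln average late days of opposite sign. With 7 DPP alone as the late day they stood at 1.14 (adjusted p = 0.724) and 1.33 (adjusted p = 0.624), and with 5 DPP alone at -0.94 (adjusted p = 0.777) and -0.53 (adjusted p = 0.870).

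**Figure D3:**
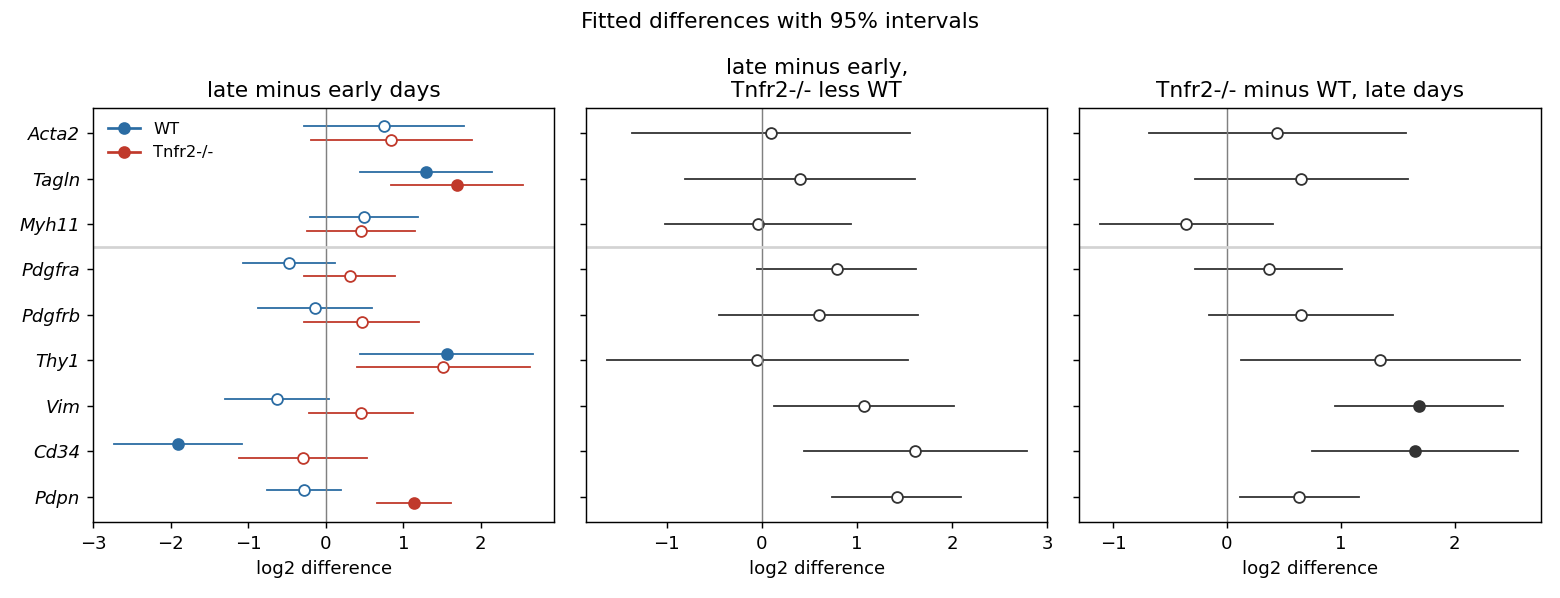
Log2 differences with 95% intervals for the 9 tested genes, late minus early within each genotype on the left, that change in Tnfr2-/- less that in WT in the middle, and Tnfr2-/- minus WT at late days on the right, filled where the adjusted p was under 0.05. The left panel shows Pdgfra, Pdgfrb, Vim and Pdpn on opposite sides of 0 in WT and Tnfr2-/-, and Acta2, Tagln and Myh11 on the same side.

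At late days, Tnfr2-/- against WT, 2 of 9 members were called, beside 6.45% of genes, both higher in Tnfr2-/- cultures. Vim was higher by 1.69 (SE 0.34, adjusted p = 0.0122) and Cd34 by 1.65 (SE 0.42, adjusted p = 0.0335). Of the rest, Thy1 stood at 1.35 (adjusted p = 0.179), Pdpn at 0.64, Tagln at 0.65 (SE 0.43, adjusted p = 0.403), Pdgfrb at 0.65, Acta2 at 0.44 (SE 0.53, adjusted p = 0.666), Pdgfra at 0.37 and Myh11 at -0.36. The median was 0.44 over the 3 contractile and 1.00 over the 6 fibroblast members tested, against -0.05 over all tested genes.

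The late difference depended on which WT mouse it was taken against. Against WT mouse 2 alone, Acta2 stood at -0.58, Tagln at -0.12, Pdgfra at -0.12 and Pdgfrb at -0.02, and 1 of the 9 members was called, Vim (1.16, adjusted p = 0.0375), beside 4.47% of genes. Against WT mouse 1 alone 16.3% of all genes and 6 members were called, among them Acta2 (1.46, adjusted p = 0.00899) and Tagln (1.43, adjusted p = 0.0179). The Vim call was lost without Tnfr2-/- mouse 2 at 5 DPP (adjusted p = 0.0582) or WT mouse 1 at 5 DPP (adjusted p = 0.0619) and without either Tnfr2-/- mouse (adjusted p = 0.202 without mouse 1 and 0.315 without mouse 2), and that of Cd34 without any single late library except WT mouse 2 at 5 DPP. The Cd34 call was also lost without Tnfr2-/- mouse 1 (adjusted p = 0.443), Tnfr2-/- mouse 2 (adjusted p = 0.270) or WT mouse 1 (adjusted p = 0.0651). On the means of 2 mice against 2, no member was called at late days (adjusted p = 0.262 for Vim and 0.260 for Cd34), and none of the 13539 genes was in limma (1859 with an unadjusted p under 0.05), so the late calls between genotypes given for other genes and lists were absent there too.

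Early, limma called 0 of 9 members beside 1.2% of genes, and 3 had an unadjusted p under 0.05, Pdpn (-0.78, adjusted p = 0.0831), Thy1 (1.39, adjusted p = 0.203) and Vim (0.61, adjusted p = 0.377). Day by day no member was called either in this fit. From the first to the last day the share of genes called was 0.0739%, 0.096%, 0.155%, 1.65% and 0.82%, and the members with an unadjusted p under 0.05 numbered 2, 1, 0, 2 and 3 on these days. At 7 DPP the log2 differences were 2.00 for Vim (adjusted p = 0.0794), 1.58 for Tagln (adjusted p = 0.265) and 1.48 for Acta2 (adjusted p = 0.394). Vim was called there where a mouse's libraries were treated as correlated (adjusted p = 0.0450). At 5 DPP Acta2 and Tagln stood at -0.60 (adjusted p = 0.758) and -0.27 (adjusted p = 0.884), with overlapping libraries, and Myh11 stood at -0.53 and -0.19 at 5 and 7 DPP.

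Over all days, 2 of 9 members were called beside 7.6% of genes, Thy1 (1.37, SE 0.32, adjusted p = 0.0156) and Vim (1.04, SE 0.23, adjusted p = 0.0121), both higher in Tnfr2-/- cultures. The Thy1 value was 0.56 without Tnfr2-/- mouse 2 (adjusted p = 0.248), the mouse that was highest on every day, and its call was also lost without WT mouse 1 (1.19, adjusted p = 0.173). Vim stood at 0.59 without WT mouse 1 (adjusted p = 0.141) and at 0.84 without Tnfr2-/- mouse 2 (adjusted p = 0.235), and its adjusted p was 0.0584 without Tnfr2-/- mouse 1. On the means of 2 mice against 2 neither was called (adjusted p = 0.456 for Thy1 and 0.403 for Vim), and 7 of 13539 genes were.

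Ratios between members within a library do not depend on the size factor, and were chosen after the values were seen, so no test is given. The sum of Acta2 and Tagln over the sum of Pdgfra and Pdgfrb lay between 0.394 and 0.610 in the 8 Tnfr2-/- libraries up to 5 DPP and was 1.50 and 1.37 in mice 1 and 2 at 7 DPP. In WT it was 0.225 to 0.491 up to 3 DPP, 0.758 and 1.15 at 5 DPP and 0.609 and 0.940 at 7 DPP. Relative to the PDGF receptors, the contractile genes were therefore at their highest at 5 DPP in both WT mice and at 7 DPP in both Tnfr2-/- mice. WT mouse 1, although low in level, also had its highest ratio at 5 DPP.

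Vim relative to Pdgfra separated the genotypes in every library. It was 5.67 to 9.18 in the 10 WT libraries (median 7.35) and 10.2 to 26.3 in the 10 Tnfr2-/- libraries (median 14.8). Within Tnfr2-/- cultures it was 26.3 and 20.3 at 1 DPP, 10.2 and 12.2 at 3 DPP and 22.1 and 18.4 at 7 DPP in mice 1 and 2, and WT libraries of these days lay between 5.67 and 8.63. Cd34 relative to Pdgfra ran from 0.235 to 1.67 in WT and from 0.517 to 2.42 in Tnfr2-/- libraries, with overlap.

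**Figure D4:**
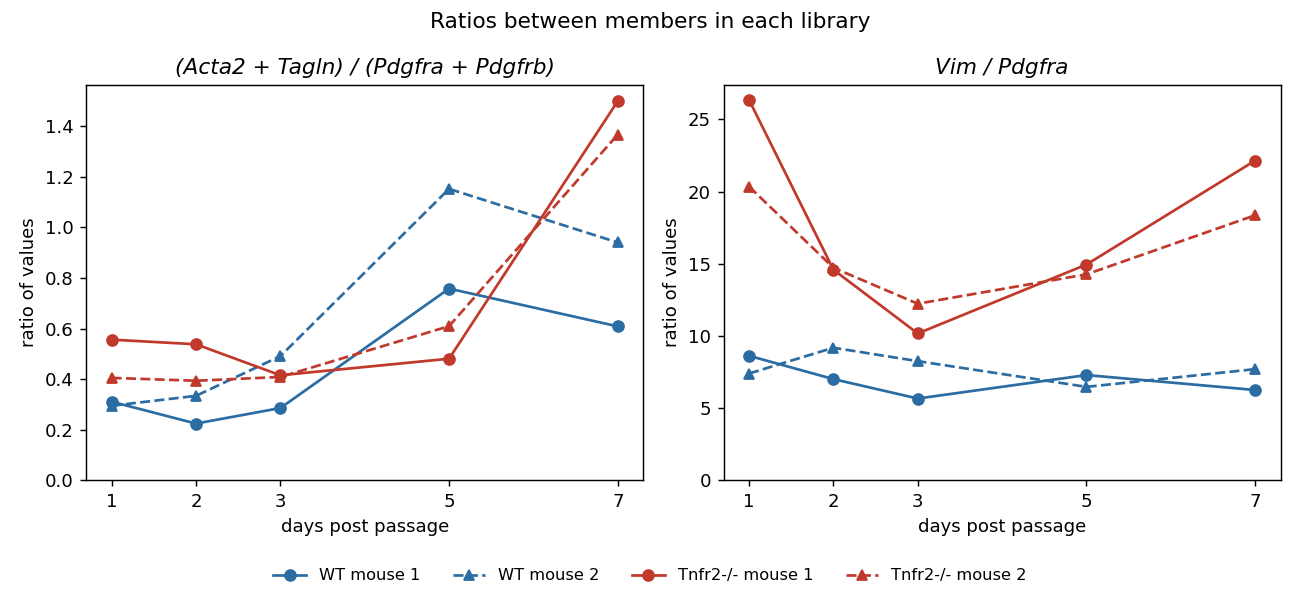
Ratio of the summed values of Acta2 and Tagln to those of Pdgfra and Pdgfrb (left) and of Vim to Pdgfra (right) against days post passage, 1 line per mouse, axes from 0. The contractile ratio peaks at 5 DPP in both WT mice and at 7 DPP in both Tnfr2-/- mice, and the Vim ratio of the 10 Tnfr2-/- libraries, 10.2 or more, stays above that of the 10 WT libraries, 9.18 or less.

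Across the 20 libraries, which share mice and days, Acta2 and Tagln correlated at a Pearson r of 0.87 on the log2 scale and Pdgfra and Pdgfrb at 0.87. Contractile and fibroblast genes were linked in part, with r of 0.86 for Acta2 and Pdgfrb and 0.44 for Tagln and Pdgfra. As a description, over the 10 Tnfr2-/- libraries Tagln correlated at 0.81 with Pdgfra, 0.73 with Vim and 0.94 with Pdpn, and over the 10 WT libraries at 0.24, 0.21 and 0.23. Acta2 correlated with the same 3 genes at 0.89, 0.87 and 0.82 in Tnfr2-/- and at 0.64, 0.64 and 0.62 in WT libraries, and with Pdgfrb at 0.87 and 0.85. For these 3 genes the lower WT values were thus those of Tagln, which in WT correlated at 0.52 with Pdgfrb and 0.58 with Thy1. Acta2 had low WT values too, at 0.29 with Cd34 and 0.34 with Thy1. Tagln and Cd34 correlated at -0.09 in Tnfr2-/- and -0.17 in WT libraries. Thy1 and Cd34, whose courses ran opposite in WT cultures, correlated at -0.52 in WT, -0.62 in Tnfr2-/- and -0.21 over all 20 libraries.

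The 5 genes outside the list whose standardised pattern over the 20 libraries was most like the mean of Acta2, Tagln and Myh11 were Ccn4 (r = 0.91), Ttc3 (0.88), Laptm4a (0.87), Igfbp7 (0.87) and Snx33 (0.86). Ccn4 and Igfbp7 encode secreted matrix-associated proteins. For the mean of the 6 fibroblast members they were Angpt4 (0.95), Loxl2 (0.94), Plekho2 (0.94), Cald1 (0.94) and Ddr2 (0.94). Loxl2 crosslinks collagen, Ddr2 is a collagen receptor and Cald1 encodes caldesmon, an actin- and tropomyosin-binding protein.

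The remaining genes of the contractile apparatus, 10 tested of 12 listed, were described in the same comparisons. Late, Tnfr2-/- against WT, 3 were called higher and none lower, beside 6.45% of all genes called, and their median was 0.41. Tpm2 (1.33, adjusted p = 0.0147) and Tpm1 (0.41, adjusted p = 0.0358) encode tropomyosins, which lie along the actin filament, and Cald1 stood at 1.28 (adjusted p = 0.0436). Late against early in Tnfr2-/- cultures, all 10 were above 0 and 2 were called, a share near the 20.3% of all genes called. These were Synpo2 (1.07, adjusted p = 0.00987), an actin-bundling protein of muscle, and Tpm1 (0.32, adjusted p = 0.0314). In WT cultures none of the 10 was called late against early, beside 20.1% of genes (4 with an unadjusted p under 0.05), and no member of this list was called for the difference between the genotypes' courses, beside 0.148% of genes (4 with an unadjusted p under 0.05). Over all days 1 was called higher in Tnfr2-/- cultures, Tpm2 (0.83, adjusted p = 0.0162), and 1 lower, Mylk, the myosin light chain kinase (-0.62, adjusted p = 0.0192), beside 7.6% of genes. From 5 to 7 DPP 6 of the 10 were higher and 2 lower in both Tnfr2-/- mice, with a fitted median of 0.40, or 0.14 less the WT step, and none called (2 and 1 with an unadjusted p under 0.05).

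Of 20 further fibroblast genes, all tested, 6 were called higher and none lower at late days in Tnfr2-/- cultures, beside 6.45% of all genes called, with a median of 0.94. None of these calls was made on mouse means. Dcn, the matrix proteoglycan decorin, led at 2.74 (SE 0.22, adjusted p = 2.2e-05), running from 135 to 402 in the 4 late WT libraries and from 1493 to 2551 in the 4 late Tnfr2-/- libraries with no overlap. It was followed by the BMP antagonist Grem1 (2.02, adjusted p = 0.00129) and the transcription factors Twist1 (1.75, adjusted p = 0.00557) and Twist2 (1.53, adjusted p = 0.0213). Late against early, 6 of 20 rose in Tnfr2-/- cultures, where 20.3% of all genes were called. Among them were Postn (1.53, adjusted p = 0.0204), a matrix protein, Col1a1 (1.12, adjusted p = 0.0272), a chain of type I collagen, Prrx1 (1.06, adjusted p = 0.0124), a mesenchymal transcription factor, and Col1a2 (0.99, adjusted p = 0.0338). In WT cultures, where 20.1% of all genes were called, 3 of 20 fell and none rose, S100a4 by 1.65 (adjusted p = 0.0330), Twist1 by 1.21 (adjusted p = 0.00909) and Dcn by 0.90 (adjusted p = 0.00775). Dcn was also the 1 gene of this list called for the difference between the courses (1.81, adjusted p = 0.0403), where 0.148% of genes were called, a call that mouse means did not give. Between 5 and 7 DPP 18 of the 20 were higher and 0 lower in both Tnfr2-/- mice, beside 31.1% of tested genes higher. Both WT mice had 12 higher and 3 lower, beside 25.7% of tested genes higher. The fitted Tnfr2-/- step had a median of 0.80, or 0.69 less the WT step. None was called in either (3 and 1 with an unadjusted p under 0.05).

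Among the ligands of the PDGF receptors, 4 of 4 were tested and none was called at late days between genotypes, beside 6.45% of genes (3 with an unadjusted p under 0.05, median 0.56). Over all days all 4 were above 0 (median 0.45) and 2 were called higher in Tnfr2-/- cultures, beside 7.6% of genes, Pdgfc (0.59, adjusted p = 0.0419) and Pdgfd (0.51, adjusted p = 0.0413). Pdgfb, the 1 of 4 called late against early in each genotype, rose by 1.34 in Tnfr2-/- (adjusted p = 0.000342) and by 0.97 in WT cultures (adjusted p = 0.00272), beside 20.3% and 20.1% of genes. The list of SRF, its cofactors and TEAD factors held 8 symbols, of which 6 were in the table and tested. At late days 1 of the 6 was called, beside 6.45% of all genes, Tead1, which encodes a partner of YAP (0.49, adjusted p = 0.0268). Late against early 1 of the 6 was called in each genotype, no more than the 20.3% and 20.1% of all genes called there, Mrtfb, an actin-sensing SRF cofactor, in Tnfr2-/- (0.49, adjusted p = 0.0385) and Srf in WT cultures (-0.50, adjusted p = 0.0401).

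**Figure D5:**
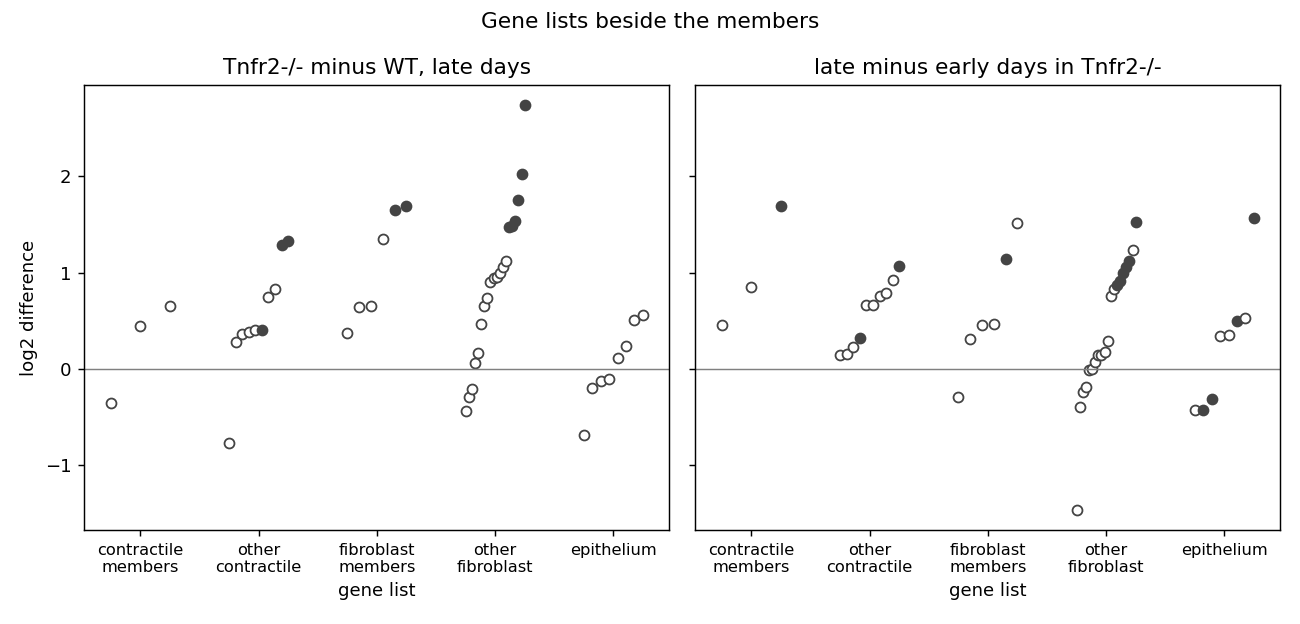
Log2 difference of each tested gene of 5 lists, Tnfr2-/- minus WT at late days (left) and late minus early in Tnfr2-/- cultures (right), filled where the adjusted p was under 0.05, with genes of a list spread sideways by rank. At late days 6 of 20 further fibroblast genes, 3 of 10 further contractile genes and none of 8 epithelial genes are filled.

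Markers of other cells were summed beside these results. The 8 epithelial markers summed to 11676 to 19311 in early and 14442 to 17910 in late WT libraries, and to 14317 to 19764 in early and 13057 to 18522 in late Tnfr2-/- libraries, so the sums of the groups overlapped. Single markers did differ. Over all days 2 of the 8 were called higher in Tnfr2-/- cultures, beside 7.6% of genes, Epcam (0.36, adjusted p = 0.0335) and Cdh1 (0.25, adjusted p = 0.0221), and at early days none was called, 7 were above 0 and 5 had an unadjusted p under 0.05. Late against early 2 rose and 2 fell in Tnfr2-/- cultures, beside 20.3% of genes, and 3 rose and none fell in WT cultures, beside 20.1%. Epcam rose late in both genotypes (1.57 and 1.33 in Tnfr2-/- and WT, adjusted p = 4.2e-05 and 8.4e-05), and Krt8 fell late by 0.43 in Tnfr2-/- cultures (adjusted p = 0.0135), with -0.20 for Tnfr2-/- against WT at late days (adjusted p = 0.352). The other two called late against early in Tnfr2-/- cultures were Cdh1 (0.50, adjusted p = 0.000866) and Krt19 (-0.31, adjusted p = 0.0299), and in WT cultures they were Cdh1 (0.51, adjusted p = 0.000884) and Vil1 (1.09, adjusted p = 0.00470). The 5 markers of pericytes, which also carry Pdgfrb, summed to 7.06 to 23.6 in late WT and 22.4 to 41.0 in late Tnfr2-/- libraries, and 2 of 4 tested were called higher there, beside 6.45% of all genes, Kcnj8 (1.71, adjusted p = 0.00557) and Cspg4 (1.16, adjusted p = 0.0240), while the defining marker Rgs5 was listed at 0 in 10 libraries and reached 1.14. Of the 4 tested pericyte markers, 2 were called higher late against early in Tnfr2-/- cultures (median 0.79), beside 20.3% of genes. In WT cultures 1 was (median 0.23), beside 20.1%. Between genotypes 1 was called higher in Tnfr2-/- cultures early, beside 1.2%, and 1 over all days, beside 7.6%. The part of these markers of other cells in the results above was not tested.

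Endothelial markers, which bear on Cd34 and Pdpn, summed to at most 6.37 in any library, Emcn was at 0 in all 20 and Cdh5 and Lyve1 in 12 each. Vwf (to 4.40), Pecam1 (to 3.90) and Prox1 (to 1.42) were above 0 in all 20, and Vwf and Pecam1, the 2 of 8 that were tested, were not called in any comparison (none with an unadjusted p under 0.05). Immune markers, which bear on Thy1, summed to at most 7.83, with Tyrobp at 0 in all 20 libraries and the T cell marker Cd3e in 16. Csf1r, a receptor of macrophages, had the highest mean and was the 1 of the 8 abundant enough to be tested, and over all days it was called higher in Tnfr2-/- cultures (0.76, adjusted p = 0.0285), as Thy1 and Vim were, beside 7.6% of genes. Late against early it was called higher in WT cultures (1.17), beside 20.1%. It was not called in Tnfr2-/- cultures (0.79, unadjusted p under 0.05), beside 20.3%. The part of Csf1r in the values of Thy1 and Vim was not tested. Glial and neuronal markers summed to at most 10.2, with Sox10 at 0 in 14 libraries and the largest share from Ret. Ret, the 1 of 5 tested, was called higher late against early in both genotypes (1.66 in Tnfr2-/- and 1.24 in WT cultures), beside 20.3% and 20.1% of genes. The mesothelial sum of 299 to 1012 came from Msln, which was also called higher in Tnfr2-/- cultures over all days (0.40, adjusted p = 0.0470), with Upk3b at 0 in 19 libraries, and that of the interstitial cells of Cajal, 51.8 to 127, came from Ano1, with Kit reaching 15.5.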

How the data were processed

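From stranded single-end mRNA libraries, the authors made values with CASAVA, kallisto, sleuth and build mm10, per the submitters' processing notes. The deposited signal is TPM per transcript divided by a size factor per library. The authors' test columns were not used. Kallisto divides shared reads by a model, and read depth is not in the table, so the counting error of low values (Myh11, Des) is unknown.

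Of 113974 lines, 781 repeats were dropped and the rest summed per symbol, 199 transcripts without one excepted. Positions came from GENCODE M21 (GRCm38), which held 39 of the members' 42 transcripts. Values were analysed as log2(value + 1), which understates changes of low genes, for genes with a mean of at least 1, with limma 3.58.1 and a mean-variance trend in R 4.3.3, as 10 group means (day plus genotype over all days), with Benjamini-Hochberg adjustment over 13539 genes at 0.05. The fit was tested on simulated data with independent errors and no mouse effect, which left dependence between a mouse's libraries unexamined.

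Same-numbered libraries within a genotype were read as the same mouse, so mouse was also fitted as a block. Across genes, the difference between mice correlated at 0.0997 to 0.307 over 10 pairs of days in WT and at -0.051 to 0.080 in Tnfr2-/- cultures. P-values that treat the days of a mouse as separate are too small between genotypes, and an exact permutation of 2 mice against 2 cannot go below 0.333. Alternatives changed scaling, filter, pseudocount, trend and gene identifier, used mouse means or a linear day, left out each library or mouse, and, chosen after seeing the data, took 7 against 5 DPP or redefined the phases. All members were named, and of other lists the called genes with the 4 largest changes, Epcam and Krt8, and the 5 most alike genes. Markers named for being at or near 0 were chosen after their values were seen. Members and lists were chosen with earlier results of these data known.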

Additional observations from a re-analysis of the deposited data

Results flagged for a closer look

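For 2 members every mouse of one genotype moved one way between early and late days and every mouse of the other the opposite way. Vim was higher late in both Tnfr2-/- mice (0.48 and 0.42 on the log2 scale) and lower late in both WT mice (-0.75 and -0.50), and the difference between the genotypes' changes was 1.08 (adjusted p = 0.366, 0.0430 with the mouse as a term, 0.293 on mouse means and 0.221 where libraries of a mouse were treated as correlated). Pdgfra was higher late in both Tnfr2-/- mice (0.27 and 0.35) and lower in both WT mice (-0.68 and -0.27), with a difference of 0.79 (adjusted p = 0.455, 0.0775 with the mouse as a term, 0.349 on mouse means and 0.313 where they were treated as correlated). No library stood far from the others of its genotype and phase by Dixon's criterion in 39 groups of 4 or 6 libraries. Each group pooled days, so a change between days could hide such a library, and 2 libraries of a mouse in a group are not separate animals.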

How the results depend on the processing

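Scaling by median ratios or to one common total, the pseudocount, a filter at a mean of 5, gene identifiers and the trend left every count of called members within 1.5 times, and the common total moved the median of all genes at late days from -0.05 to -0.12. Members called over all days (2) became 0 on mouse means and 1 with day as a linear term. Early (0), the replicate block by the number that both genotypes share, which pairs no animals, gave 2, with 280 in place of 162 genes called, and late it added Thy1 (adjusted p = 0.0466). Late (2), the count was 1 without a filter and 0 on mouse means, with 7 DPP alone or with 5 DPP alone. Day by day (0), the correlated mouse block gave 1, Vim at 7 DPP (adjusted p = 0.0450), and it added Thy1 late against early in Tnfr2-/- cultures (adjusted p = 0.0239). There (2), the count became 4 with the mouse as a term and 0 with 5 DPP alone. In WT cultures (3) it became 6 with the mouse as a term, 1 without a filter, 0 with 7 DPP alone, 1 with 5 DPP alone and 1 without 1 DPP. The difference of courses (0) became 3, and the Tnfr2-/- step from 5 to 7 DPP (0) became 1, with the mouse as a term, but the former was 0 on mouse means (0 of 13539 genes in limma, 1553 with an unadjusted p under 0.05), and both were 0 with the correlated mouse block. The blocks changed no other call. Same-numbered libraries of WT and Tnfr2-/- correlated at -0.054 to 0.076.

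Leaving out a library or mouse (a lone library being assumed to vary like the other groups) gave 0 to 5 members over all days (1.05% to 14.2% of all genes), 0 to 1 early (0.118% to 5.37%), 0 to 6 late (0.148% to 16.3%), 0 to 5 day by day (0.00736% to 8.56%), 0 to 3 late against early in Tnfr2-/- (0.0147% to 25.4%) and 1 to 3 in WT cultures (7.68% to 21.4%), 0 to 1 for the difference of courses (0% to 1.01%) and 0 to 1 for the Tnfr2-/- step (0% to 0.2%). It turned the sign of 32 of 90 fitted values (a member in a comparison), of which 0 were called on all libraries. Among them were, at late days, Acta2 (-0.58 to 1.46), Tagln (-0.12 to 1.43), Pdgfra (-0.12 to 0.85) and Pdgfrb (-0.023 to 1.32), late against early in WT cultures Pdgfrb (-0.53 to 0.26) and Pdpn (-0.61 to 0.049), and for the difference of courses Acta2 (-0.47 to 0.66), Tagln (-0.094 to 0.89), Myh11 (-0.33 to 0.26) and Thy1 (-0.49 to 0.40).

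With 5 DPP alone as late, signs turned for Acta2 (-0.60) and Tagln (-0.27) at late days, for Acta2 (-0.41), Pdgfra (-0.097), Pdgfrb (-0.040) and Vim (-0.19) late against early in Tnfr2-/- cultures, and for the difference of courses of Acta2 (-0.94), Tagln (-0.53) and Thy1 (0.15). With 7 DPP alone they turned for Pdgfrb (0.21) and Pdpn (0.059) in WT cultures and for the difference of Myh11 (0.13), and without 1 DPP for Pdgfrb (0.036) and Pdpn (0.053) in WT cultures and the difference of Acta2 (-0.067) and Thy1 (0.14). The cause was not tested. The late Vim and Cd34 differences were above 0 in all of these fits.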
